A study of Xenopus tropicalis with 9 samples.

Results

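The total RNA of Xenopus tropicalis embryos was followed across the mid-blastula transition in 2 of the 9 libraries of the study. Both were ribosomal RNA depleted (RZ) libraries, one of the early blastula at Nieuwkoop-Faber stage 6 and one of the late blastula at stage 9. They were compared over every gene with at least 1 RPKM in one of them, which held for 9321 of the 15288 genes of the table, 229 of them without a gene name. RPKM is the number of reads scaled to exon length and to the mapped reads of the library, here the mean over the exons of a gene. The other libraries were an RZ library of stage VI oocytes and 6 libraries of polyadenylated (PA) RNA from the oocyte to stage 30. The question was which RNAs gain or lose abundance in the interval in which the embryo begins to transcribe its own genome.

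Both stages were whole, untreated embryos from in vitro fertilizations in 3 separate crosses of outbred frogs. RNA was extracted from 3 clutches and pooled, so that each stage had 1 library. The differences between the libraries therefore have no replicate check and were not tested. In whole embryos, a lower number of cells of one kind and less RNA per cell cannot be told apart.

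Eggs of Xenopus carry a large store of maternal RNA, and the embryo divides quickly and almost without transcription until the mid-blastula transition. At the transition the cell cycle lengthens and transcription starts from the embryonic genome, while parts of the maternal store are degraded. Much of the control before it acts on the length of the polyA tail. An RZ library is made without selection for the tail and counts transcripts with long and short tails alike.

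The RZ stage 6 library had 22365493 mapped reads and the RZ stage 9 library 23857216, derived from the values of single-exon genes. A floor of 3 reads on 1 kb of exon was 0.134 RPKM at stage 6 and 0.126 RPKM at stage 9. The depth behind genes with several exons is not known, since the deposited value is a mean over exons. Of the 9321 genes, 8537 had at least 1 RPKM in both libraries, 159 at stage 6 only and 625 at stage 9 only. The highest value of 74 further genes lay between 0.9 and 1 RPKM, just outside the limit, as for lrrc9 with 0.322 RPKM at stage 6 and 0.995 RPKM at stage 9. That of 96 genes lay between 1 and 1.1 RPKM, as for sh2b2 with 0.913 RPKM at stage 6 and the higher value at stage 9. Of 42 markers of differentiated larval tissues such as muscle, liver and blood, 2 reached 1 RPKM at stage 6 and 0 at stage 9. Their summed level was 5.18 RPKM at stage 6 and 3.45 RPKM at stage 9. The muscle genes mylpf and acta1 were listed at 0 in both libraries. The muscle genes actc1 and myl1 were not, with 1.05 and 0.267 RPKM at stage 6 and 0.670 and 0.357 RPKM at stage 9.

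RPKM was higher at stage 9 than at stage 6 for 6367 of the 9321 genes (68.3%). The median log2 change, stage 9 over stage 6, was 0.50 over the 9280 genes above 0 in both libraries, a 1.41-fold rise. The 5th and 95th percentiles across genes were -1.21 and 2.41. The sum of RPKM over all genes moved in the same direction, from 152651 at stage 6 to 189331 at stage 9, and was 186000 in the oocyte. In what follows a gene rose when its RPKM at stage 9 was at least 2 times that at stage 6, and fell when it was at most 0.5 times. By this rule 3002 genes (32.2%) rose and 681 genes (7.31%) fell. The balance depended on the scale. When the median change of 0.50 was taken off every gene, 1724 genes (18.5%) rose and 1512 (16.2%) fell. At least 4-fold changes as deposited were 903 rises and 101 falls, and after centring 452 rises and 259 falls. Across genes, log2 RPKM at stage 6 and stage 9 had a Pearson correlation of 0.80 and a Spearman correlation of 0.81, in which each point is a gene and all points share the same libraries.

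**Figure D1:**
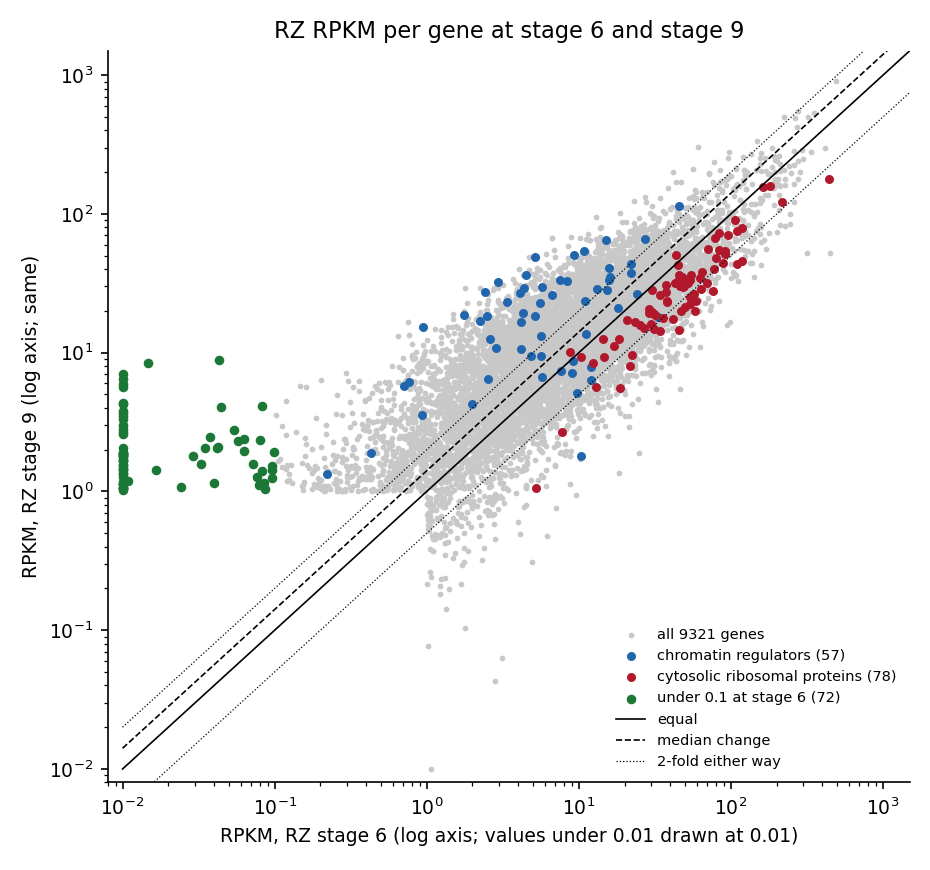
RPKM of each of the 9321 genes in RZ stage 6 (x axis) and RZ stage 9 (y axis), both log axes, with lines for equal values, the median change and a 2-fold change either way. The 78 cytosolic ribosomal protein genes in red lie below the line of equal values but for 2. Most of the 57 genes listed by symbol as chromatin regulators, in blue, lie above the upper 2-fold line. The 72 genes in green had under 0.1 RPKM at stage 6 and at least 1 RPKM at stage 9. Values under 0.01 RPKM are drawn at 0.01.

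The most abundant RNA was the same at both stages. Cyclin B1 (ccnb1), the regulatory subunit that drives entry into mitosis with Cdk1, had the highest RPKM at both stages, 495 at stage 6 and 908 at stage 9. The next at stage 6 were mt4, a metallothionein, with 446 RPKM, rps29 with 441, actb with 417 and ccnb2 with 353. At stage 9 they were ccnb1.2 with 556 RPKM, ccnb2 with 538, the arginine methyltransferase prmt1 with 499 and ornithine decarboxylase odc1 with 496. Of these, ccnb1.2 and prmt1 rose as deposited, from 277 and 224 RPKM, while mt4 and rps29 fell, to 52.0 and 179 RPKM. After centring neither ccnb1.2 nor prmt1 was above the 2-fold limit. Genes without an exact unique match for all of their reads, such as the near copies among cyclins, histones and ventx genes, are uncertain, because reads that mapped to several positions had been left out.

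A small set of genes went from near absence to presence. In all, 72 genes had under 0.1 RPKM at stage 6 and at least 1 RPKM at stage 9, and 40 of them were listed at 0 at stage 6. In the oocyte 43 of the 72 were also under 0.1 RPKM and 14 had at least 1 RPKM. Their levels at stage 9 were low, with a median of 1.80 RPKM, 6 genes at 5 RPKM or more, and a sum that made 0.0899% of all RPKM. The reverse, from at least 1 RPKM at stage 6 to under 0.1 RPKM at stage 9, was found for 4 genes: gsta1, sema4a, pdgfd and nkiras2. The highest of these had 3.11 RPKM at stage 6. In the PA libraries 53 of the 72 genes were under 0.1 RPKM at stage 6 and 53 had at least 1 RPKM at stage 9.

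The highest of the 72 at stage 9 was cxcr4, a chemokine receptor used in cell migration, with 0.832 RPKM in the oocyte, 0.0431 at stage 6 and 8.84 at stage 9. gs17 had 0.217, 0.0147 and 8.49 RPKM in the same order. The zinc finger gene znf527 was listed at 0 in the oocyte and had 0.00891 RPKM at stage 6 and 7.06 RPKM at stage 9. These values at stage 6 are under the floor of 3 reads on 1 kb. admp, a BMP-related ligand of the organizer, had 0.0605 RPKM in the oocyte, was listed at 0 at stage 6 and had 6.51 RPKM at stage 9. Not all of the set was new relative to the oocyte. miip had 5.14 RPKM in the oocyte, was listed at 0 at stage 6 and had 4.32 RPKM at stage 9, and wnt7b had 2.27, 0 and 3.04 RPKM.

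Some genes of this set lay side by side. The ventx genes encode homeobox repressors that act downstream of BMP signals and promote ventral fate. They formed a run on scaffold 7 of the JGI 7.1 assembly, from ventx3.2 at 21449929 to the end of ventx2.1 at 21511012. Each of the 5 was under 0.1 RPKM at stage 6, and at stage 9 they had 1.56 (ventx3.2), 2.61 (ventx3.1), 2.06 (ventx2.2), 1.46 (ventx1.1) and 1.80 RPKM (ventx2.1). That all 5 were detected at stage 9 follows from the rule of the set, and reads shared by near copies had been left out. In PA stage 9 they ranged from 3.34 RPKM (ventx3.2) to 17.7 RPKM (ventx2.2). The organizer homeobox genes sia2 and sia1 started 12.7 kb apart on scaffold 40 and went from 0 to 3.34 and 1.07 RPKM. The zinc finger genes znf350 and znf33b started 10.2 kb apart on scaffold 6. Of the 29 genes of the set with another tested gene start within 50 kb, 9 had a member of the set as the nearest. These 9 were the ventx, sia and znf genes just named, with both members of a pair counted. The matching share over all genes was not computed, so the count only describes these runs. Over all genes that rose, the nearest tested gene within 50 kb had risen for 472 of 1645 (28.7%), beside 26.1% of all 5895 genes with such a neighbour.

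Regulators of the germ layers were described by lists. Nodal ligands and their targets instruct the vegetal and marginal cells to become endoderm and mesoderm. Of 38 listed Nodal ligands, receptors and mesendoderm factors, 16 passed 1 RPKM. Of these 10 rose (62.5%, beside 32.2% of all genes) and 0 fell (beside 7.31%). In lists with low levels, as here, genes that passed the limit only through stage 9 had to be higher there, so these counts describe the list and do not compare it with others. The median log2 change was 0.79 over those above 0 in both libraries. The ligand nodal6 went from 0 in the oocyte and at stage 6 to 2.80 RPKM at stage 9. lefty, a secreted Nodal antagonist, had 0.0443 RPKM in the oocyte, 0 at stage 6 and 3.69 RPKM at stage 9. The T-box factor eomes had 0, 0 and 1.90 RPKM. These transcripts were seen at stage 9 and not at the depth of the 2 earlier libraries, apart from traces in the oocyte. The homeobox factor mix1 reached 1.65 RPKM, foxa4 reached 1.35 and the endoderm factor sox17b.1 reached 1.02, each listed at 0 at stage 6. The TGF-beta family ligand gdf3 rose from 0.202 to 6.36 RPKM. Maternal components were abundant throughout. vegt, the maternal T-box factor of the vegetal pole, rose from 58.2 to 148 RPKM, a rise that was inside the 2-fold limit after centring. The co-receptor tdgf1 with 116 and 127 RPKM, foxh1 with 33.0 and 57 and acvr1b with 19.9 and 37.0 did not pass the 2-fold limit.

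On the dorsal side, maternal Wnt signals stabilise beta-catenin, which turns on the siamois genes and with them the organizer. Of 33 listed genes 18 were tested, 13 rose and 1, the ligand wnt11 with 2.41 and 0.721 RPKM, fell. These were 72.2% and 5.56% of those tested, beside 32.2% and 7.31% of all genes. Here too, genes that passed 1 RPKM only through stage 9 had to be higher there. The median log2 change was 1.18 over those above 0 in both libraries. The maternal beta-catenin gene ctnnb1 had 305 RPKM in the oocyte, 148 at stage 6 and 335 at stage 9. The Wnt co-receptor lrp6 had 26.3, 15.2 and 43.8 RPKM in the same order. Both were lowest at stage 6. gsk3b, the kinase that marks beta-catenin for degradation, rose from 3.96 to 15.9 RPKM, tcf7 from 1.72 to 6.99 and the notochord homeobox gene not from 2.70 to 11.6. The organizer genes chrd and gsc were low. chrd, a secreted BMP antagonist, went from 0.0108 to 1.19 RPKM and gsc from 0 to 1.18. The Wnt ligand wnt8a went from 0 to 1.33 RPKM. Unlike wnt11, the ligand wnt11b stayed inside the limits as deposited and after centring. It had 15.2 RPKM in the oocyte, 13.6 at stage 6 and 10.8 at stage 9. The repressor tcf7l1 had 34.9 RPKM at stage 6 and 18.7 at stage 9, short of the limit for a fall as deposited and past it after centring. The rise of ctnnb1 was inside the limit after centring.

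BMP signalling specifies ventral and epidermal fate. Of 40 listed BMP, ventral and ectodermal regulators 23 were tested. Of these 13 rose (56.5%, beside 32.2% of all genes) and 0 fell (beside 7.31%). Again, genes that passed 1 RPKM only through stage 9 had to be higher there. The 5 tested genes listed at 0 at stage 6, all of which rose, have no log2 change. Over the others the median log2 change was 0.45 as deposited and became -0.04 after centring. klf17, a Kruppel-like factor, showed the largest rise of any named gene with at least 10 RPKM at stage 9, from 0.755 to 16.7 RPKM (log2 change 4.46). id3, an inhibitor of helix-loop-helix factors, rose from 0.329 to 5.66 RPKM and the ligand bmp4 from 0.138 to 2.66. In contrast to bmp4, the ligand bmp2 was already at 24.7 RPKM at stage 6 and had 35.2 RPKM at stage 9. The ligand bmp7.2 rose from 5.90 to 21.5 RPKM. smad1 with 55.4 and 72.8 RPKM, klf2 with 54.1 and 51.6 and the inhibitor smad6 with 35.3 and 17.8 stayed inside the 2-fold limits as deposited, though smad6 passed the limit for a fall after centring.

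Of 36 genes for pluripotency and early neural regulators 19 were tested. In this list 8 rose and 1 fell (42.1% and 5.26%, beside 32.2% and 7.31% of all genes). The same limit holds for genes that passed 1 RPKM only through stage 9. sox7 rose from 2.18 to 14.6 RPKM, beside 16.0 RPKM in the oocyte. hes7.1, a repressor of the Hairy family, fell from 227 to 81.3 RPKM. The neural factor zic1 went from 0 to 2.67 RPKM, irx1 from 0 to 1.49 and foxd4l1.1 from 0 to 1.55. The maternal Oct factors hardly moved, with 43.6 and 42.3 RPKM for oct25 and 45.5 and 47.0 RPKM for oct60.

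**Figure D2:**
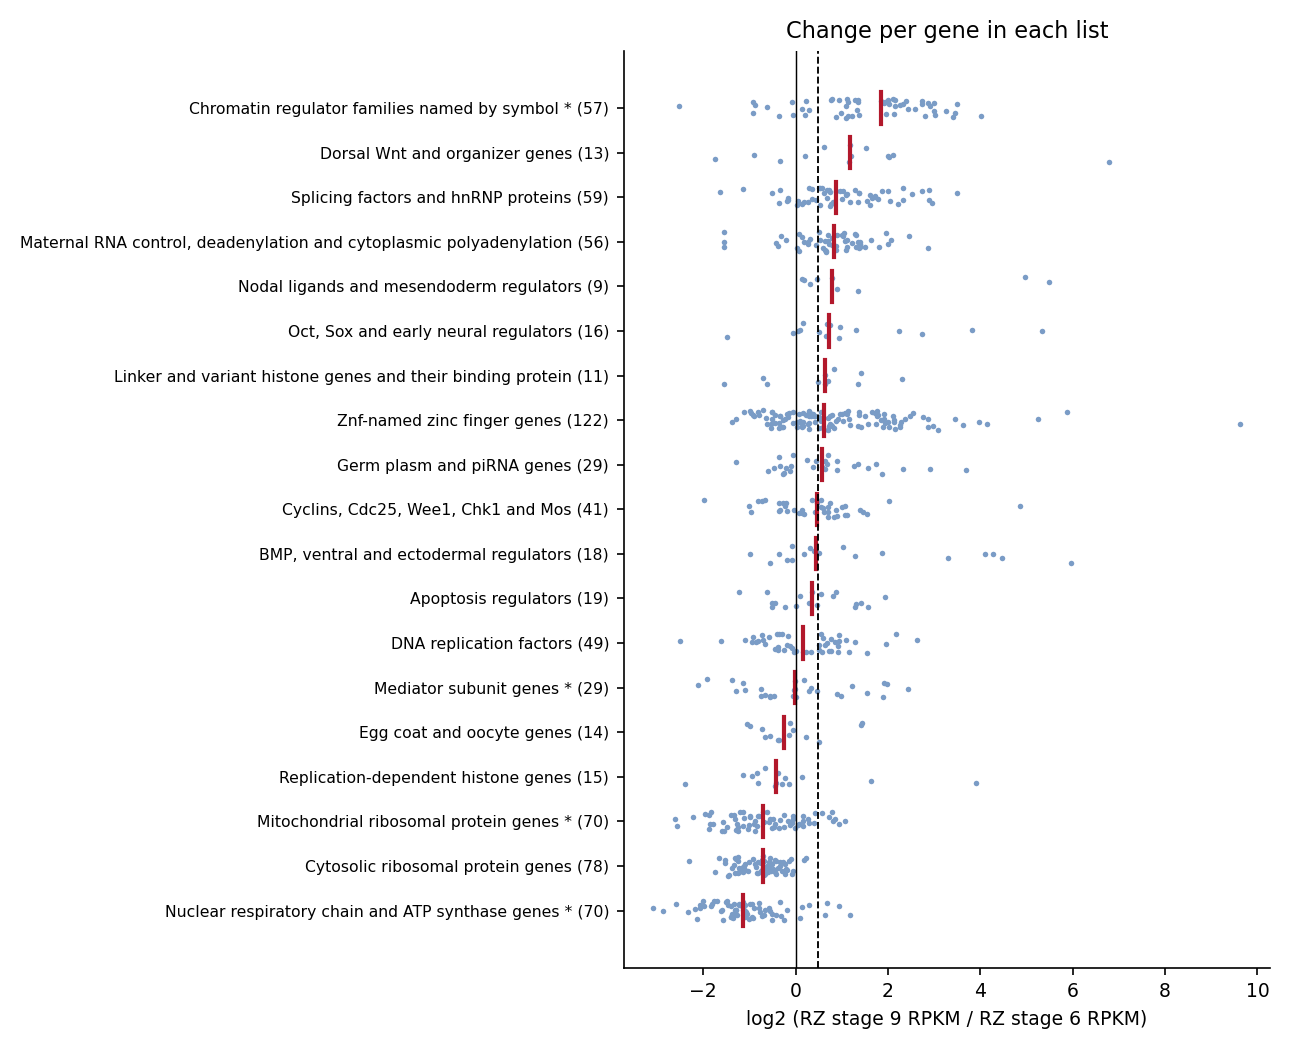
log2 change from RZ stage 6 to RZ stage 9 (x axis) of each tested gene that was above 0 in both libraries (points, number in brackets), in each list with at least 10 tested genes; red bars are list medians, the solid line is no change and the dashed line the median of all genes at 0.50. Lists with a star were drawn up after the values were seen. Medians run from -1.14 for the nuclear respiratory chain genes to 1.85 for the genes listed by symbol as chromatin regulators.

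The 20 largest rises among named genes with at least 10 RPKM at stage 9 ran from log2 3.45 to 4.46. Apart from klf17, they included genes for chromosome structure and chromatin. The cohesin loader nipbl had 11.9 RPKM in the oocyte, 2.25 at stage 6 and 29.3 at stage 9. The topoisomerase top1.2 had 8.96, 1.78 and 29.4 RPKM, and the DNA repair gene brca2 4.23, 0.803 and 11.6 RPKM. In each of these the value at stage 6 was the lowest of the 3 RZ libraries. The oocyte levels of the 20 genes ranged from 0.730 to 12.3 RPKM. In the PA libraries all 20 rose at least 2-fold over the same interval, beside 68.2% of all genes. The genes were long: their median span on the genome was 35.3 kb, beside 17.9 kb for all genes tested, and 18 of the 20 were above that median.

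Families of chromatin regulators were counted for this reason, after these values had been seen. Membership went by symbol alone. The mllt genes, such as mllt4, were therefore counted, though they are not members of the MLL family. Of 57 tested genes named for the CHD, SMARC, MLL, SETD, NSD, BRD, INO80, BAZ and related families, 40 rose (70.2%, beside 32.2% of all genes) and 1 fell, with a median log2 change of 1.85. Their summed RPKM was 878 in the oocyte, 517 at stage 6 and 1340 at stage 9. The remodellers chd7 and chd1 rose from 5.18 to 49.2 RPKM and from 2.42 to 27.2 RPKM. The histone H3 lysine 36 methyltransferases setd2 and nsd1 rose from 1.76 to 18.8 RPKM and from 2.94 to 32.1 RPKM. The one that fell was ino80c, from 10.3 to 1.81 RPKM. The median span of the family genes was 30.5 kb, and all tested genes with spans of 17.9 to 35.04 kb had a median log2 change of 0.60. The part of gene length in this difference was not tested.

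Splicing factors remove introns from new transcripts. Of 59 splicing factor and hnRNP genes 28 rose (47.5%, beside 32.2% of all genes) and 2 fell (3.39%, beside 7.31%), with a median log2 change of 0.87. After centring 19 rose and 3 fell. The hnRNP proteins, which package nascent transcripts, made up much of this, as 13 of 16 rose. hnrnpu went from 8.83 to 68.1 RPKM, hnrnpa3 from 4.11 to 30.7 and hnrnpab from 60.5 to 302. prpf4b, a kinase of the spliceosome, rose from 2.90 to 32.9 RPKM. The falls were those of snrpg, from 41.6 to 13.3 RPKM, and sf3b5, from 54.8 to 25.1 RPKM.

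Factors that govern maternal RNA include the CCR4-NOT and PAN deadenylases, the decapping and 5′ to 3′ decay enzymes and the CPEB proteins that direct cytoplasmic polyadenylation. Of 56 tested genes 24 rose (42.9%, beside 32.2% of all genes) and 3 fell, with a median log2 change of 0.83. After centring 8 rose, where 18.5% of all genes did, and 3 fell, so that the larger share of rises was seen only as deposited. The somatic polyA-binding protein gene pabpc1 rose from 13 to 95.1 RPKM, beside 41.9 RPKM in the oocyte. The exonuclease xrn1 rose from 5.99 to 33.0 RPKM, the deadenylase subunit pan3 from 12.8 to 53.6 and cnot6l from 38.7 to 154. The egg-type polyA-binding protein gene pabpc1l had 17.3 and 26.1 RPKM. The genes that fell were zar1, from 12.9 to 4.38 RPKM, ybx2, the germ cell Y-box protein that packages stored messages, from 15.4 to 5.31, and cnot7, from 2.82 to 0.958 RPKM.

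Of 41 genes of the cell cycle 9 rose (22%, beside 32.2% of all genes) and 1 fell, with a median log2 change of 0.46. ccna2, the somatic cyclin A, rose from 95.5 to 252 RPKM, e2f1 from 15.0 to 41.1 and rb1, the retinoblastoma gene, from 7.56 to 30.5. The checkpoint kinase chek1 rose from 24.0 to 50.1 RPKM and wee2, the kinase that inhibits Cdk1, from 77.6 to 163. cdk1 itself had 101 RPKM in the oocyte, 207 at stage 6 and 107 at stage 9, short of the limit as deposited and past it after centring. After centring 3 genes of the list rose and 6 fell, and ccna2, e2f1, chek1 and wee2 were no longer among the rises. The fall was that of cdknx, a Cdk inhibitor of Xenopus, from 3.86 to 0.978 RPKM. Of 49 DNA replication genes 7 rose and 3 fell (14.3% and 6.12%, beside 32.2% and 7.31% of all genes). Their median log2 change of 0.16 became -0.34 after centring. lig1, the ligase of Okazaki fragments, rose from 3.96 to 24.7 RPKM, and rfc1, the large subunit of the clamp loader, from 1.66 to 7.43. The small clamp loader subunits rfc3 and rfc2 fell, from 23.4 to 7.66 RPKM and from 44.7 to 20.9 RPKM, as did gins1 from 62.4 to 11 RPKM. Within the clamp loader, rfc1 thus rose while rfc2 and rfc3 fell. Of 20 apoptosis regulators 6 rose and 1 fell (30% and 5%), shares near those of all genes. The fall was that of the survival factor mcl1, from 39.1 to 16.8 RPKM.

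Short genes made up most of the largest falls. Among the 20 largest falls of named genes with at least 10 RPKM at stage 6, 19 spanned less than the median of 17.9 kb, and the median span was 5 kb. ndufa5, a subunit of respiratory complex I, had 14.9 RPKM in the oocyte, 46.2 at stage 6 and 5.46 at stage 9. uqcr10, of complex III, had 30.8, 99.4 and 16.6 RPKM, and the mitochondrial ribosomal protein gene mrpl54 had 195, 318 and 52.4 RPKM. All 3 were highest at stage 6. g0s2, an inhibitor of lipolysis, had 19.2, 24.8 and 1.90 RPKM, and the copper chaperone atox1 45.2, 39.0 and 6.83 RPKM. The largest fall was poli, a translesion DNA polymerase, from 18.3 to 1.37 RPKM (log2 change -3.74), beside 2.28 RPKM in the oocyte. In the PA libraries 14 of the 20 were higher at stage 9 than at stage 6, beside 90.8% of all genes, and 0 were at or below 0.5 times, beside 2.25%.

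**Figure D3:**
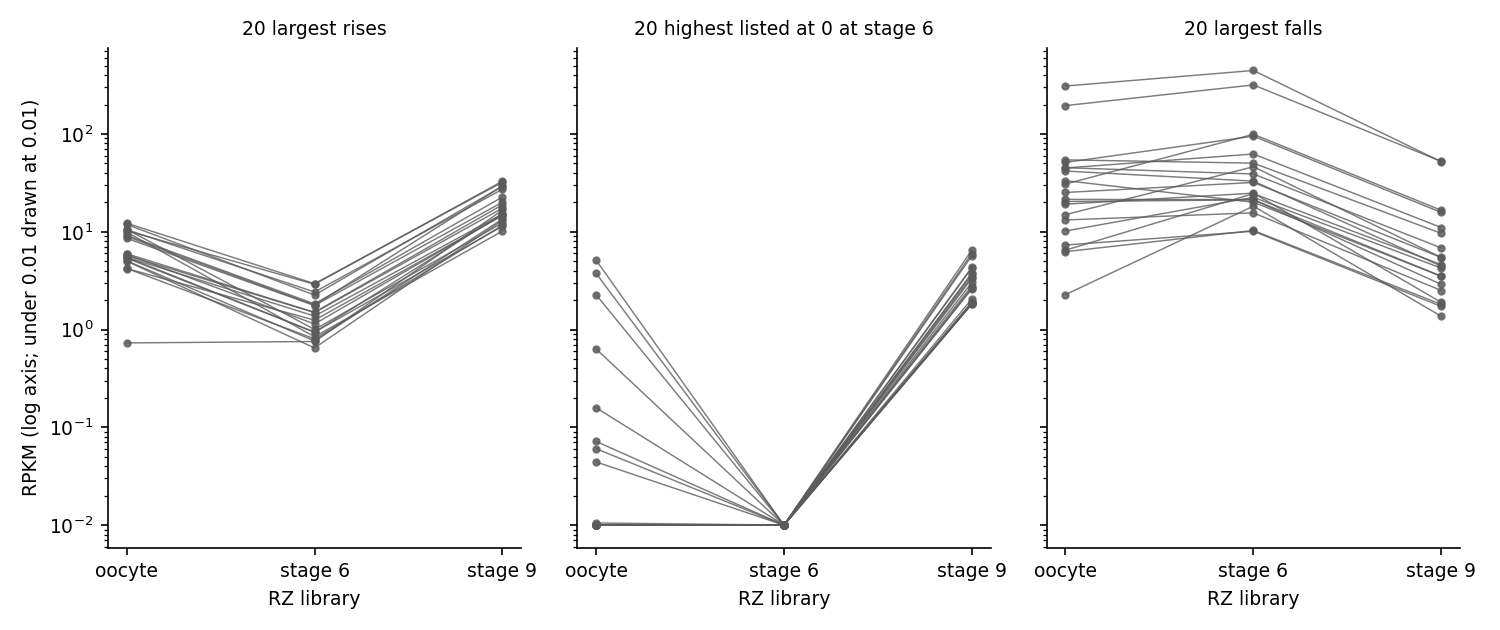
RPKM (y axis, log axis) in the RZ oocyte, stage 6 and stage 9 libraries for the 20 largest rises, the 20 highest genes at stage 9 among those listed at 0 at stage 6, and the 20 largest falls; each line is a gene, and values under 0.01 RPKM are drawn at 0.01. Of the 20 genes listed at 0 at stage 6, 15 were under 0.1 RPKM in the oocyte as well, while oocyte levels of the 20 largest rises reached 12.3 RPKM.

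Ribosomal protein and respiratory chain genes had larger shares of falls than all genes. Of 78 tested cytosolic ribosomal protein genes 0 rose and 25 fell (32.1%, beside 7.31% of all genes). The median log2 change was -0.70 as deposited and -1.19 after centring. In all, 76 of the 78 were lower at stage 9, and the exceptions were rpl17 with 43.4 and 50.8 RPKM and rps26 with 8.81 and 10.1 RPKM. Their summed RPKM was 5783 in the oocyte, 4607 at stage 6 and 2810 at stage 9. rpl14 fell from 45.4 to 14.5 RPKM and rpl37a from 57.7 to 20.1 RPKM. Lists of 2 further families were drawn up after the values were seen. Of 70 mitochondrial ribosomal protein genes 1 rose and 26 fell (37.1%), 16 were higher at stage 9, and the median log2 change was -0.70. Of 70 nuclear genes for the respiratory chain and ATP synthase 1 rose and 42 fell (60.0%), with a median of -1.14. The genes of both families were short, with median spans of 7.38 and 6.61 kb, and the shortest of 4 equal groups of tested genes had a median log2 change of -0.04. Their part in the family medians was not tested. The single gene of the table listed under a mitochondrially encoded name, cox3, had 126 and 150 RPKM. Its entry lay on scaffold 6 with a span of 0.474 kb. Whether its reads came from the mitochondrial genome was not tested. Mediator, the complex between enhancer-bound factors and RNA polymerase, had 6 of 29 subunit genes up and 6 down (20.7% each, beside 32.2% and 7.31% of all genes), and 5 up and 11 down after centring. med13 rose from 17.5 to 64.6 RPKM and med13l from 2.97 to 16.1 RPKM, whereas med11 fell from 29.9 to 6.90 RPKM and med28 from 46.0 to 12.1 RPKM.

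Replication-dependent histone messages end in a stem-loop in place of a polyA tail, so that an RZ library is the kind that keeps them. Of 15 tested genes 2 rose and 2 fell (13.3% each, beside 32.2% and 7.31% of all genes). At stage 9, 12 of the 15 were lower, and the median log2 change was -0.42. hist1h4a fell from 50.3 to 9.63 RPKM and hist1h2ad from 70.3 to 31.9 RPKM. hist1h3g rose from 23.0 to 71.4 RPKM, but its values go against the class, with a span of 10.8 kb and 37.0 and 77.9 RPKM in the PA libraries. The other rise was hist1h4k, from 0.0955 to 1.43 RPKM, which passed 1 RPKM only through stage 9 and so had to be higher there. The PA values of hist1h2ad were 1.81 and 3.16 RPKM. Among 11 linker and variant histone genes and slbp, 3 rose and 1 fell (27.3% and 9.09%), shares near those of all genes. cenpa, the centromeric histone H3, rose from 9.13 to 45.0 RPKM, and h1foo, the linker histone of the oocyte, from 27.1 to 72.1 RPKM, the latter inside the limit after centring.

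Germ plasm holds the maternal RNAs that mark the future germ cells. Of 29 germ plasm and piRNA genes 8 rose and 1 fell (27.6% and 3.45%), shares near those of all genes at 32.2% and 7.31%, with a median log2 change of 0.58 beside 0.50. tdrd6, a Tudor domain protein, rose from 2.13 to 10.6 RPKM and mov10l1, a helicase of piRNA production, from 7.96 to 28.9 RPKM, while mael fell from 25.1 to 10.3 RPKM. Of 14 egg coat and oocyte genes 2 rose and 1 fell (14.3% and 7.14%), with a median of -0.25, and after centring 0 rose and 5 fell. The egg coat gene zp2 had 50.4 and 39.4 RPKM and zp4 80.2 and 77.8 RPKM, inside the limits. The fall was gtf3a, the 5S gene transcription factor TFIIIA, from 27.1 to 13.2 RPKM. Of 123 zinc finger genes named Znf 49 rose and 3 fell (39.8% and 2.44%, beside 32.2% and 7.31% of all genes), with a median of 0.61. Some, such as znf3, passed 1 RPKM only through the late blastula library and so had to be higher there. These shares therefore describe the list and do not compare it with others. znf3 rose from 0.356 to 6.26 RPKM and znf407 from 1.72 to 14.6 RPKM, and znf639 fell from 38.3 to 14.7 RPKM.

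The share of genes that rose increased with the span of the gene. The 9321 genes were taken in 4 equal groups by span. In the shortest, up to 9.31 kb, 17.5% rose (95% Wilson interval over genes 16.0 to 19.1%) and 15.7% fell (14.2 to 17.2%). In the longest, from 35.05 kb, 52.6% rose (50.6 to 54.6%) and 1.97% fell (1.48 to 2.62%). The groups between had 23.1% and 35.7% of rises. The intervals of neighbouring groups did not overlap, but genes of one library are not replicates and the intervals describe these libraries only. After centring the shares of rises were 10.3% in the shortest and 32.4% in the longest group. The median RPKM of the longest group was 8.57 in the oocyte, 5.28 at stage 6 and 11.4 at stage 9, and that of the shortest 13.4, 11.4 and 10.9. The median was thus lowest in the stage 6 library for the longest group and not for the shortest. It was also lowest there in the groups between, with 10.6 and 8.80 RPKM at stage 6. Their medians were 13.9 and 12.5 RPKM in the oocyte and 13.4 and 14.1 RPKM at stage 9. The Spearman correlation of span with log2 change across genes was 0.37 in the RZ libraries and 0.31 in the PA libraries of the same stages. From the oocyte to stage 9, without the stage 6 library, it was 0.34, and the median log2 change went from -0.20 in the shortest to 0.38 in the longest group.

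**Figure D4:**
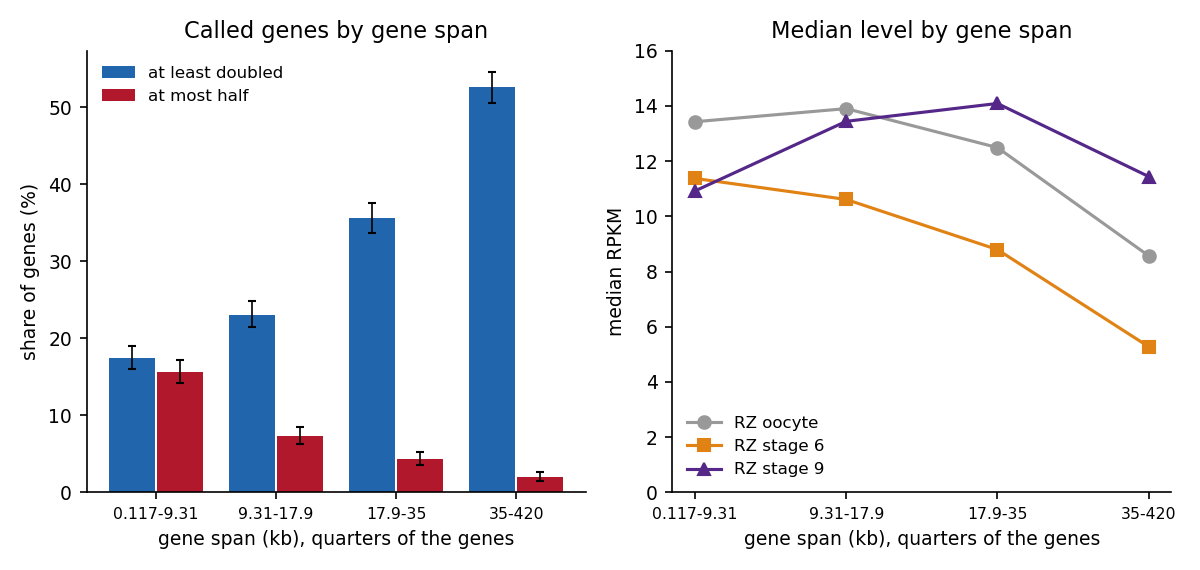
Left, share of genes (y axis, %) that at least doubled (blue) or were at most 0.5 times (red) from RZ stage 6 to RZ stage 9 in 4 groups of genes by span (x axis, kb), with 95% Wilson intervals. Right, median RPKM of the same groups in the 3 RZ libraries. Rises go from 17.5% in the shortest to 52.6% in the longest group, and the stage 6 median falls from 11.4 to 5.28 RPKM.

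The level in the oocyte separated the genes as well. Of the 60 tested genes with under 0.1 RPKM in the RZ oocyte library, 52 (86.7%) rose, but a gene that reached 1 RPKM only at stage 9 had to be higher there. The share was 39.0% of the 3774 genes from 1 to 10 RPKM, 26.0% of the 4996 genes from 10 to 100 RPKM and 11.2% of the 206 genes of 100 RPKM or more. Of the genes that rose, 2795 (93.1%) had 1 RPKM or more in the oocyte, beside 96.3% of all genes tested. In 2909 of them (96.9%, beside 61.9%) stage 6 was the lowest of the 3 RZ libraries, which a rule based on stage 6 favours. At stage 9, 663 of them (22.1%, beside 8.24%) had at least 2 times their oocyte level. The part of the stage 6 library in the rises was not tested. The median RZ level of the genes that rose was 8.50 RPKM in the oocyte, 3.94 RPKM at stage 6 and 13.3 RPKM at stage 9. Genes that fell had median levels of 13.2, 15.6 and 5.68 RPKM in the same order, and all genes tested 11.8, 8.42 and 12.4 RPKM. The oocyte values are given as levels, since a change from oocyte to stage 6 would share the stage 6 library.

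Over the same 9321 genes and the same interval, the PA libraries showed 6356 rises (68.2%) and 210 falls (2.25%), with a median log2 change of 1.51. Centred on that median, they had 1562 rises (16.8%) and 1681 falls (18%). Of the 3002 genes that rose in RZ, 2388 also rose in PA, which was 79.5% of the RZ list and 37.6% of the PA list. With each interval centred on its own median the overlap was 509 genes, 29.5% of the RZ list and 32.6% of the PA list. Of the 681 genes that fell in RZ, 59 (8.66%) also fell in PA and 339 (49.8%) rose there. med28 had 46.0 and 12.1 RPKM in RZ and 21.6 and 139 RPKM in PA at stages 6 and 9. For ska2, a kinetochore gene, the values were 32.0 and 5.45 RPKM in RZ and 0.859 and 11.8 RPKM in PA. These RNAs fell in total RNA and rose in polyadenylated RNA. The opposite, a rise in RZ and a fall in PA, was seen for 10 genes, of which hnrnpa3, hnrnpa1 and rcc2 had at least 10 RPKM in an RZ library. hnrnpa1 had 19.6 and 64.2 RPKM in RZ and 193 and 88.9 RPKM in PA. Across 9272 genes the log2 changes in RZ and in PA had a Pearson correlation of 0.28 and a Spearman correlation of 0.23.

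For genes with a single exon RPKM could be turned back into reads, which gives the counting error of the ratio. There were 167 such genes among those tested, with a median of 124 reads at stage 6 and 158 at stage 9. The 95% exact interval of the stage 9 to stage 6 ratio, per mapped read, lay above 1 in 81 genes, below 1 in 43 and included 1 in 43. It lay above 2 in 30 genes and below 0.5 in 5. Against the median change of all genes, 51 were above and 71 below. These intervals cover counting error only, as reads amplified by PCR are not independent molecules and no clutch was sequenced on its own.

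The transcription factor gene sox2 had 2 reads in the oocyte, 3 at stage 6 and 129 at stage 9, a ratio of 40.3 (interval 13.5 to 198). foxd4l1.1 had 0, 0 and 109 reads, per mapped read 34.1 times a floor of 3 reads assumed at stage 6. znf33b with 0, 0 and 119 reads was at 37.2 times this floor, and the receptor gene lpar6 with 3, 0 and 80 reads at 25.0 times. These values are not lower limits of the ratio. All of these genes belong to the set with under 0.1 RPKM at stage 6 and at least 1 RPKM at stage 9. Their ratios had to be high for that reason, so the intervals give counting error and no further support. zbed4 had 1702 reads in the oocyte, 557 at stage 6 and 5928 at stage 9, a ratio of 9.98 (9.15 to 10.9). Deeply covered maternal genes showed smaller steps, with intervals that did not include 1. sox3 went from 4525 to 8159 reads, a ratio of 1.69 (1.63 to 1.75), and mos, the kinase that holds the egg in metaphase, from 4936 to 5818 reads, a ratio of 1.11 (1.06 to 1.15). The histone gene h2afx went from 4738 to 3282 reads, a ratio of 0.649 (0.621 to 0.679), and hist1h2ad from 742 to 359 reads, a ratio of 0.454 (0.399 to 0.515). The germ line gene nanos1, with 468 and 420 reads, had a ratio of 0.841 (0.736 to 0.962). Against the median change of all genes, 1.41, the interval of sox3 lay above. Those of mos, h2afx, hist1h2ad and nanos1 lay below it, so that the direction for mos depended on the scale. g0s2 had 356 and 29 reads, a ratio of 0.0764 (0.0504 to 0.112), the lowest of the 163 genes with reads at stage 6.

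**Figure D5:**
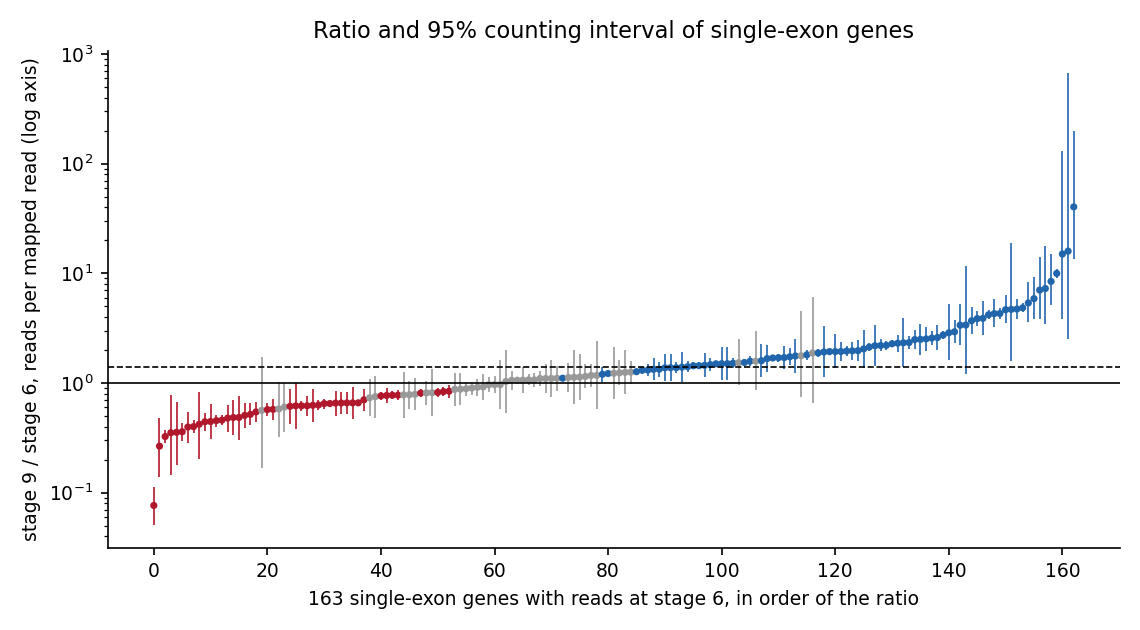
Ratio of stage 9 to stage 6 reads per mapped read (y axis, log axis) with its 95% exact interval for the 163 tested single-exon genes with reads at stage 6, in order of the ratio (x axis, rank). Blue intervals lie above 1, red below 1 and grey include 1; the solid line is 1 and the dashed line the median change of all genes, 1.41. The ratios run from 0.0764 to 40.3, and 4 genes without reads at stage 6 are not drawn.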

How the data were processed

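RPKM values for 15288 genes of 9 libraries were used as the authors deposited them, 3 RZ and 6 PA. The authors aligned reads with BWA 0.6.1 to the JGI 7.1 assembly, left out reads mapping to several positions and took the mean over the non-redundant exons of each gene. The reads carry no strand, so overlapping genes on opposite strands cannot be told apart. Coordinates are those of the table. Of 14520 named genes, 13500 matched a RefSeq symbol or synonym.

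Log2 ratios of the deposited RPKM were computed without a pseudocount over genes with at least 1 RPKM in RZ stage 6 or RZ stage 9, as deposited and centred on the median. Mapped reads came from genes whose RPKM, multiplied by length and mapped reads, lay within 0.001 of whole reads in all 9 libraries. Their ratios have exact conditional binomial intervals (95%). The procedure was tested on simulated data. With 1 library per stage no test between libraries was made. Alternatives were other scales, filters (0.5, 2 and 5 RPKM or none), pseudocounts (0.1 and 1) and folds (1.5 and 4). Alternatives for the oocyte level, neighbouring genes and single-exon genes were chosen after seeing the data.

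Named genes were the 5 highest in each library, the 20 largest rises and falls at 10 RPKM or more, the 20 highest listed at 0 at stage 6, and up to 4 rises and 4 falls per list at 5 RPKM or more. Unnamed genes were left out of the names. The genes and the 17 lists were chosen with earlier results of these data known. Further members named from the lists, the set under 0.1 RPKM at stage 6, the single-exon genes and 4 added families were named after their values were seen. Sequences were not used here, and some genes are not reported here. Python 3.11.15, numpy 2.4.6, pandas 2.3.3, scipy 1.17.1 and matplotlib 3.10.9 were used.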

Additional observations from a re-analysis of the deposited data

Results flagged for a closer look

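Among the first lists, larval markers aside, 3 had median changes of opposite sign in the 2 kinds of library. This difference over the same interval was not tested because each stage had 1 library of each kind. Of the families added later, the mitochondrial ribosomal protein, respiratory chain and Mediator lists also had negative medians in RZ and positive medians in PA. The replication-dependent histone genes had a median log2 change of -0.42 in RZ and 0.95 in PA. Messages of this class lack the polyA tail, so a PA library is not the kind that keeps them, and their PA median is uncertain. The egg coat and oocyte genes had -0.25 in RZ and 1.5 in PA. The cytosolic ribosomal protein genes had -0.70 in RZ and 0.98 in PA, where 64 of the 78 were higher at stage 9 and 38 at least doubled. After each interval was centred on its own median, the ribosomal protein list had -1.19 in RZ and -0.53 in PA and the histone list -0.91 and -0.56, so that the signs were no longer opposite, and the egg coat list had -0.74 and -0.01.

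Markers of larval tissues were seen in a library outside the comparison of the RZ stages. Of the 42 markers, 11 had at least 1 RPKM in PA stage 9, beside 1 in PA stage 6 and 0 in RZ stage 9. Their summed RPKM was 57.2 in PA stage 9, 2.41 in PA stage 6 and 3.45 in RZ stage 9, and 8333 in PA stage 30. The muscle genes mylpf, myl1 and actc1 had 9.99, 8.05 and 13.3 RPKM in PA stage 9 and 0, 0.357 and 0.670 RPKM in RZ stage 9. Their part in the overlap of RZ and PA rises was not tested.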

How the results depend on the processing

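With 1 pooled library per stage no spread is known, and levels relative to the library cannot give RNA per embryo. Depth limits single genes below the floor of 3 reads, and it is unknown for genes with several exons. No paired analysis was possible because no group had replicates. The scale changed the balance most. Rises and falls were 1724 and 1512 when centred, 2133 and 1130 at equal summed RPKM, and 1732 and 1505 with a trimmed mean. The median change was then 0, 0.19 and 0.0020. Without a filter there were 4971 rises and 1422 falls, at a fold of 1.5 there were 4323 and 1343, and at a fold of 4 there were 903 and 101. Filters of 0.5 to 5 RPKM and pseudocounts left both counts within 1.5 times and the median within 0.1. Of the 17 lists 13 had a median above 0 as deposited and 8 when centred. Centring turned the medians of the BMP list to -0.044, the cell cycle list to -0.039 and the replication list to -0.34. It turned cox3 to -0.24 and the apoptosis list to -0.13. Equal summed RPKM turned the replication list to -0.15 and cox3 to -0.056. These medians leave out the genes listed at 0 at stage 6, which were 5 in the BMP list and 1 in the apoptosis list. The share of rises in the longest genes was 32.4% when centred, and in the shortest 10.3% when centred and 13.8% at 5 RPKM. For genes under 0.1 RPKM in the oocyte it was 100% at 5 RPKM. A gene that passed this filter only in the late blastula library had to be higher there, so this share is no check on the rises. Of risen genes with a neighbour, 16.2% had a risen one when centred. The RZ share that also rose in PA was 29.5% when each was centred, and 51 single-exon genes lay above the median fold in place of 81 above 1. For each of these moves only the scale, the filter or the fold was changed. Of the 169 named genes 85 rose as deposited, 72 when centred and 84 with a pseudocount of 1.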
